A study of Mus musculus with 6 samples.

Results

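The comparison set the small RNA library of Alkbh1-/- pachytene spermatocytes directly against that of TzfpGTi/GTi pachytene spermatocytes, with 1 library each and 2 wild-type (WT) libraries as the measure of spread. It covered the small RNA clusters whose deposited reads, summed over both mutant libraries, came to 40 or more, with absent clusters counted as 0. These were 1642 of the 4944 clusters with reads in any of the 4 libraries, and they held 99.9% of the cluster reads in each mutant. Pachytene spermatocytes are male germ cells in the long stage of meiosis in which homologous chromosomes are paired and recombine. All the cells came from mouse testes. In the Alkbh1-/- mice exon 6 of Alkbh1 was deleted, and the line had been crossed back to C57/BL6. The TzfpGTi/GTi mice are homozygous for a gene trap, made in 1 embryonic stem cell clone, whose splice acceptor lies before exon 1 of Tzfp. No age, litter or number of animals is given for any group, and no label says whether the WT libraries came from separate animals.

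In pachytene spermatocytes most small RNA bound by PIWI proteins comes from a limited number of genomic clusters, whose long transcripts are cut into piRNAs. These pachytene piRNAs derive largely from sequence outside repeats, and spermatogenesis fails when the PIWI pathway is lost. Alkbh1 encodes a member of the AlkB family of dioxygenases, enzymes that remove methyl groups from nucleic acids. Tzfp, now called Zbtb32, encodes a BTB zinc finger protein, a class of DNA-binding factors that often act as repressors. By its title, the study concerns repression of a piRNA cluster by both genes. Setting the mutants beside each other asks what they share and where they part.

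Cluster reads came to 7306115 in Alkbh1-/-, 14760893 in TzfpGTi/GTi, 10193940 in WT replicate 1 and 15319520 in WT replicate 2, and levels are given as reads per 1000000 of these totals (RPM). Small RNA tables do not measure the mRNA of the targeted genes. In the mRNA table used here, which covers Alkbh1-/- and WT, Alkbh1 had 20.4 counts per 1000000 (CPM) in Alkbh1-/- and 20.8 in WT, and Zbtb32 had 428 and 325. These counts span whole genes, so they cannot show the loss of exon 6. The 7 measured pachytene markers of 8 had 128 to 4279 CPM in Alkbh1-/- and 121 to 4866 in WT. The markers of other testis cells were not at 0: 4 Sertoli genes summed to 136 in Alkbh1-/- and 359 in WT, 3 of 4 Leydig genes to 108 and 49.0, and 4 spermatid genes to 430 and 349. Of the spermatid genes Acrv1 (122 and 66.8), Catsper3 (53.9 and 21.9) and Sun5 (73.0 and 34.1) had more in Alkbh1-/- and Tnp1 (181 and 226) less. Their part in the small RNA results was not tested, and fewer cells of a type cannot be told apart here from less RNA per cell.

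Among clusters with 200 or more reads in the mutants, those with the lowest and the highest log2 fold of Alkbh1-/- over TzfpGTi/GTi were neighbours on chromosome 7: 1082B, the cluster the study is about, and 1082A. Cluster 1082B had far more reads in both mutants than in WT, and 1082A was low in TzfpGTi/GTi alone. Cluster 1082B (mm9 chromosome 7, 132472368 to 132476593, 4226 bp) had 1858 reads in Alkbh1-/- and 57188 in TzfpGTi/GTi, against 4 and 94 in the WT libraries. In RPM these were 254 in Alkbh1-/- and 3874 in TzfpGTi/GTi, against 0.392 in WT replicate 1 and 6.14 in WT replicate 2. Both mutants lay above both WT libraries. The log2 fold of Alkbh1-/- over TzfpGTi/GTi was -3.93, so TzfpGTi/GTi was 15.2-fold above Alkbh1-/- (exact 95% interval 14.5 to 15.96, which covers counting error only).

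The WT libraries differed in the same cluster by almost as much. WT replicate 1 over WT replicate 2 had a log2 fold of -3.80, and replicate 2 was 15.6-fold above replicate 1 (interval 5.91 to 58.6). The deposited tables of Alkbh1-/- and WT replicate 1 share one naming scheme and those of TzfpGTi/GTi and WT replicate 2 another. No label calls this a batch. Set against the WT library of its own scheme, 1082B was 648-fold higher in Alkbh1-/- (253 to 2381) and 631-fold higher in TzfpGTi/GTi (516 to 781). Set against the other WT library it was 41.4-fold higher in Alkbh1-/- (33.7 to 51.5) and 9874-fold higher in TzfpGTi/GTi (3856 to 36239). With the same WT library set beside both, TzfpGTi/GTi thus stood further above WT than Alkbh1-/- each time. With the library of its own scheme beside each, the mutants were nearly level. There the interval of Alkbh1-/- took in the value of TzfpGTi/GTi. The edgeR quasi-likelihood test, in which the WT pair supplied the only residual degree of freedom, gave a log2 difference of -3.93 ± 1.5 (SE) and an adjusted p of 0.462. The study chose 1082B on these samples, so its rank here is a description.

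Cluster 1082A (132448301 to 132458800), which ends 13567 bp to the left of 1082B, had 199 reads in Alkbh1-/- and 34 in TzfpGTi/GTi, against 258 and 383 in WT. In RPM it had 27.3 in Alkbh1-/- and 2.30 in TzfpGTi/GTi, against 25.26 and 25.001 in WT. Alkbh1-/- thus lay close to the WT libraries, 1.08-fold above replicate 1 (0.890 to 1.2998), while TzfpGTi/GTi lay at 0.0912 of replicate 1 (0.0617 to 0.130). It was the highest of the clusters with 200 or more reads in the mutants, 11.8-fold above TzfpGTi/GTi (8.19 to 17.6). The WT libraries differed by a log2 of 0.02 in it. Its edgeR log2 difference was 3.56 ± 0.29 with an unadjusted p of 0.000280 and an adjusted p of 0.426. With DESeq2's Wald test the adjusted p was 4.90e-05.

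Cluster 1081 (132435801 to 132448200), 100 bp further left, was also higher in Alkbh1-/- than in TzfpGTi/GTi, with 15 reads in Alkbh1-/- and 4 in TzfpGTi/GTi, against 36 and 69 in WT. That is 2.05 RPM in Alkbh1-/- and 0.271 in TzfpGTi/GTi, against 3.53 and 4.504 in WT, so that, unlike in 1082A, Alkbh1-/- was below both WT libraries. The mutants differed 7.58-fold with a wide interval (2.41 to 31.4), and the sum was under the floor of 40. Cluster 1082C (132493001 to 132509300), which starts 16407 bp to the right of 1082B, ran the other way. It had 890 reads in Alkbh1-/- and 3597 in TzfpGTi/GTi, against 1610 and 2861 in WT. In RPM it had 122 in Alkbh1-/- and 244 in TzfpGTi/GTi, against 158 and 187 in WT, so the mutants lay on opposite sides of both WT libraries. TzfpGTi/GTi was 2-fold above Alkbh1-/- (1.86 to 2.16), with an edgeR adjusted p of 0.427. The next cluster to the right, piC_2108, had 5 reads in Alkbh1-/- and 1 in TzfpGTi/GTi, against 8 and 3 in WT, too few to compare. The order of the libraries therefore differed between the clusters on the left of 1082B and the one on its right.

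**Figure D1:**
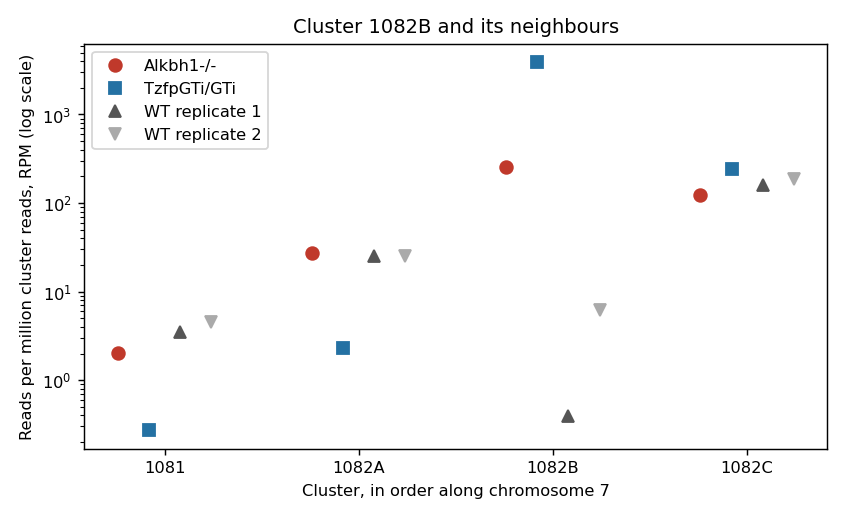
Level in RPM (log axis) for 4 neighbouring clusters on chromosome 7 in the Alkbh1-/-, TzfpGTi/GTi and 2 WT libraries, 1 point per library. Cluster 1082B is at 254 in Alkbh1-/- and 3874 in TzfpGTi/GTi, above both WT points, whereas 1082A is at 27.3 in Alkbh1-/-, beside WT, and at 2.30 in TzfpGTi/GTi.

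Most reads came from the same clusters in both mutants. Of the clusters with reads in either mutant, 3754 had reads in both, 405 in Alkbh1-/- only and 457 in TzfpGTi/GTi only. Those found in 1 mutant were faint: the highest had 8 reads in Alkbh1-/- and 20 in TzfpGTi/GTi, and none of the 1642 clusters compared was at 0 in either mutant. Log levels correlated across the 1642 clusters at a Pearson r of 0.963 between the mutants and 0.975 between the WT libraries, a description over clusters that share each library. The 100 clusters with most reads in Alkbh1-/- included 94 of the 100 in TzfpGTi/GTi, while the WT libraries had 97 of 100 in common. The 100 of each library held 97.1% of reads in Alkbh1-/- and 97.4% in TzfpGTi/GTi. Clusters named by a number held 93.0% of reads in Alkbh1-/-, 93.3% in TzfpGTi/GTi and 93.4% and 93.3% in WT.

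The 10 most abundant clusters together held 49.3% of reads in Alkbh1-/- (95% Wilson interval 49.3 to 49.4) and 48.8% in TzfpGTi/GTi (48.8 to 48.8), against 49.6% and 48.5% in WT. All 10 had numbers for names, were 72800 to 131400 bp long, and lay between -0.38 and 0.50 in log2 fold of Alkbh1-/- over TzfpGTi/GTi. Cluster 2249 (chromosome 17, 27386801 to 27518200) was the highest of them. It held 12.7% of reads in Alkbh1-/- and 8.97% in TzfpGTi/GTi, against 8.44% and 8.08% in WT. Its log2 fold was 0.50, with an edgeR adjusted p of 0.427, and its share of reads was 3.73 percentage points larger in Alkbh1-/- than in TzfpGTi/GTi. No other cluster had a difference of this size in either direction. Cluster 716 (chromosome 5, 113732101 to 113804900) followed among the abundant clusters with 3.92% in Alkbh1-/- and 3.43% in TzfpGTi/GTi, against 3.46% and 3.41% in WT. Both were above both WT libraries in Alkbh1-/-, and TzfpGTi/GTi lay nearer to WT.

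Of the other abundant clusters, 7 had less than both WT libraries in Alkbh1-/-. Cluster 2405 held 3.71% of reads in Alkbh1-/- and 4.84% in TzfpGTi/GTi, against 4.43% and 4.99% in WT. Cluster 1709 (chromosome 12, 99617801 to 99707200) held 3.14% in Alkbh1-/- and 3.91% in TzfpGTi/GTi, against 3.95% and 3.99% in WT. Cluster 1297 (chromosome 9, 54041301 to 54120700) held 3.21% in Alkbh1-/- and 3.85% in TzfpGTi/GTi, against 4.15% and 4.01% in WT. Shares add up to a fixed total, so those of different clusters are not independent. The log2 folds of 2405, 1709 and 1297 were -0.38, -0.32 and -0.26. With totals that leave out the 10 most abundant clusters they were -0.37, -0.30 and -0.25. The part of 2249 in these lower values was not tested. Clusters 1301 and 1031 were nearly equal, at log2 folds of 0.02 and -0.01. Clusters 882 (-0.16), 200 (-0.07) and 2098 (-0.20) lay below 0 as well. Summed over the 1642 clusters, 8.67% of reads would have to change cluster to turn one mutant's profile into the other's, compared with 3.34% for the WT pair.

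**Figure D2:**
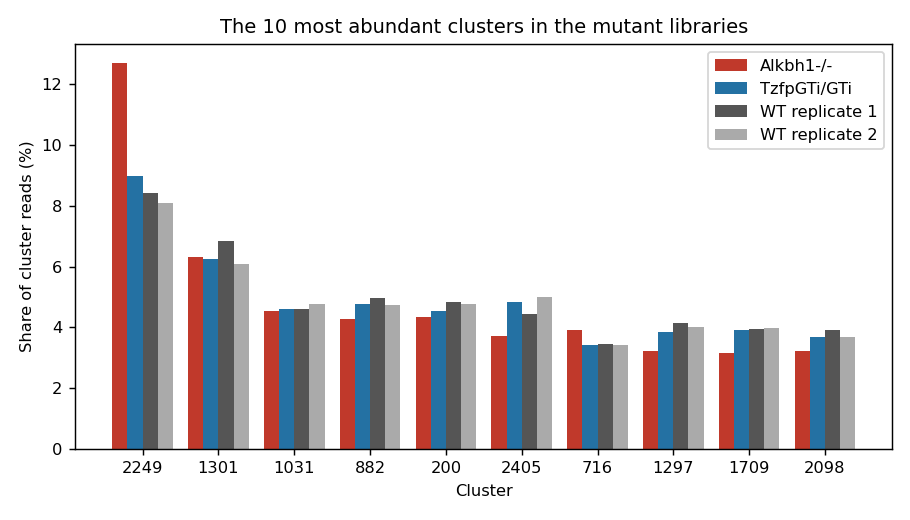
Share of cluster reads (%) in the 10 clusters with most reads in the mutants, with 1 bar per library for Alkbh1-/-, TzfpGTi/GTi and the 2 WT libraries. Cluster 2249 reaches 12.7% in Alkbh1-/- and 8.97% in TzfpGTi/GTi, and the other 9 differ less.

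Differences between the mutants were mostly small and were spread around zero. The median log2 fold of Alkbh1-/- over TzfpGTi/GTi was 0.09, and 67.5% of clusters lay within 1.5-fold, compared with 75.6% in the WT pair. The SD of the log2 fold was 0.74 between the mutants and 0.62 between WT replicates 1 and 2. It was 0.75 for Alkbh1-/- over WT replicate 1 and 0.88 over WT replicate 2, and it was 0.61 and 0.54 for TzfpGTi/GTi over the same libraries. Alkbh1-/- therefore lay about as far from its nearer WT library as from TzfpGTi/GTi. It had the lowest read total, 7306115, and the SDs were not corrected for counting error. By SD, TzfpGTi/GTi lay no further from either WT library than the WT libraries from each other, but its median absolute log2 fold over WT replicate 2 was 0.291, against 0.274 for the WT pair.

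At 2-fold, 158 clusters were higher in Alkbh1-/- than in TzfpGTi/GTi (9.62% of those compared) and 71 were lower (4.32%). With DESeq2 size factors as the scaling these became 121 higher and 87 lower. In the WT pair 169 were higher in replicate 1 (10.3%) and 18 lower (1.1%). At 4-fold, 29 were higher in Alkbh1-/- (1.77%) and 9 lower (0.548%), 2.31% in all, with 24 (1.46%) and 2 (0.122%), 1.58% in all, in the WT pair. At 2-fold the totals were 13.9% between the mutants and 11.4% in the WT pair. So the number of clusters higher in Alkbh1-/- was close to the number by which the WT pair differed in one direction. By edgeR's test, adjusted by Benjamini-Hochberg over the 1642 clusters at 0.05, 0 were higher and 0 lower (0% each), with 175 at an unadjusted p under 0.05. DESeq2's Wald test called 19 higher (1.73% of 1101 with an adjusted p) and 0 lower, with 60 at an unadjusted p under 0.05. It used DESeq2's own size factors in place of the library totals, and its 19 calls formed 16 separate loci. Of these 19, 10 were among the 12 highest clusters with 200 or more reads, and 12 were at least 2-fold higher in WT replicate 1 than in replicate 2. Both tools borrow the spread of the WT pair for the single mutant libraries.

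**Figure D3:**
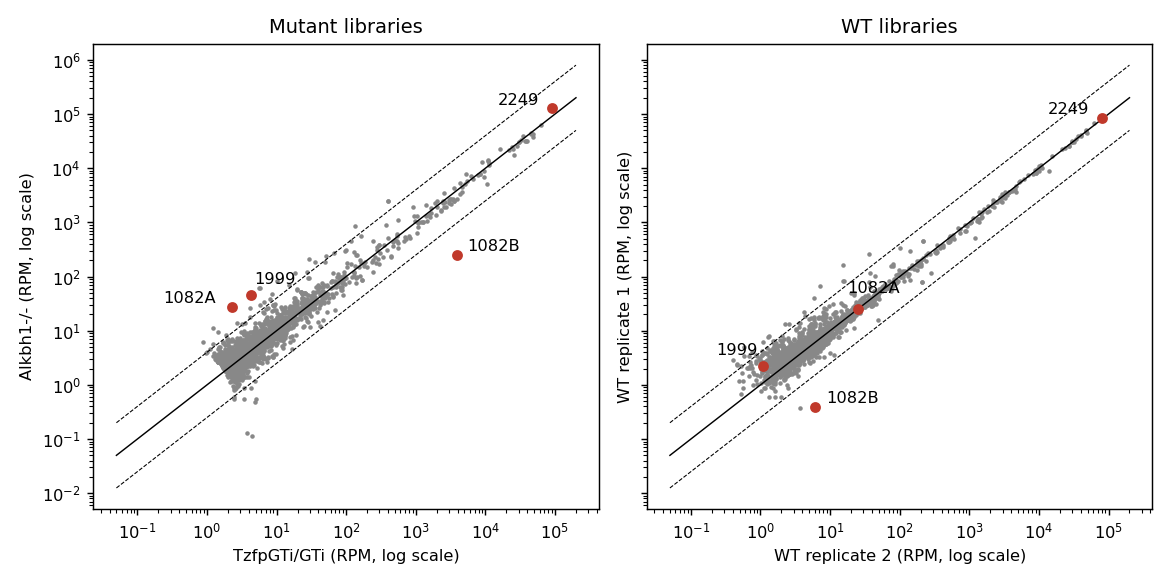
Level in RPM (log axes) of the 1642 clusters, 1 point per cluster, for Alkbh1-/- against TzfpGTi/GTi (left) and WT replicate 1 against WT replicate 2 (right). The solid line is equality and the dashed lines are 4-fold: 38 clusters lie past them between the mutants and 26 in the WT pair, with 1082B below the line in both panels.

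The clusters higher in Alkbh1-/- than in TzfpGTi/GTi were chosen for a high Alkbh1-/- or a low TzfpGTi/GTi value, so their place beside WT is a description. Of the 29 at 4-fold, 28 were above both WT libraries in Alkbh1-/-, while TzfpGTi/GTi lay between the WT libraries in 22, above both in 3 and below both in 4. Over the 1642 clusters, Alkbh1-/- was above both WT libraries in 797, and TzfpGTi/GTi lay between them in 639, above both in 604 and below both in 399. The place of TzfpGTi/GTi rested on WT replicate 2: without that library it lay below WT in 25 of the 29. The 12 highest with 200 or more reads formed 10 separate loci, since piC_1397 and piC_2849 overlap and shared nearly all their reads, as did piC_1101 and piC_2570. Of these 12, 10 had piC names, and 1082A, described above, headed them.

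Cluster 1999 (chromosome 14, 95950701 to 95976300) had 45.2 RPM in Alkbh1-/- and 4.23 in TzfpGTi/GTi, against 2.22 and 1.08 in WT. Both mutants were above both WT libraries, and Alkbh1-/- was 10.7-fold above TzfpGTi/GTi (8.18 to 14.3). Its edgeR log2 difference was 3.42 ± 0.56 with an adjusted p of 0.426, and DESeq2's Wald test gave an adjusted p of 0.000846. The pair piC_2570 and piC_1101 (chromosome 13, 21247958 to 21272434 in all) had 451 reads each in Alkbh1-/- and 81.7 and 85.7 in TzfpGTi/GTi. In RPM piC_2570 had 61.8 in Alkbh1-/- and 5.54 in TzfpGTi/GTi, against 13.8 and 3.63 in WT. Here the WT libraries themselves stood 3.81-fold apart, and TzfpGTi/GTi lay between them.

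The pair piC_1397 and piC_2849 (chromosome 17, 39954489 to 39985771 in all) carried the most reads of the 12. It had 2502 RPM in Alkbh1-/- and 394 in TzfpGTi/GTi, against 450 and 213 in WT, a 6.35-fold difference between the mutants (6.17 to 6.54). Cluster piC_1210 (chromosome 14, 115441554 to 115461711) had 857 in Alkbh1-/- and 132 in TzfpGTi/GTi, against 169 and 79.2 in WT. Cluster piC_1318 (chromosome 16, 17203864 to 17233536) had 82.0 in Alkbh1-/- and 10.1 in TzfpGTi/GTi, against 20.4 and 8.66 in WT. In these the order was the same: Alkbh1-/- highest, then WT replicate 1, then TzfpGTi/GTi, then WT replicate 2. Per kilobase of cluster, piC_1397 had 429 RPM in Alkbh1-/- and 67.6 in TzfpGTi/GTi over its 5830 bp. The 10 most abundant clusters had 351 to 966 RPM per kilobase in Alkbh1-/- and 438 to 682 in TzfpGTi/GTi, so piC_1397 lay within their range in Alkbh1-/- and below all of them in TzfpGTi/GTi. Whether the reads of such clusters are piRNA or pieces of other RNA made there was not tested, because read lengths and strands are not in the tables used here and no mm9 annotation was used.

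Clusters piC_1464 (chromosome 19, 4396068 to 4451551) and piC_2335 (chromosome 10, 62844459 to 62892690) had fewer reads. The first had 25.9 RPM in Alkbh1-/- and 4.20 in TzfpGTi/GTi, against 5.56 and 3.77 in WT. The second had 47.2 in Alkbh1-/- and 8.72 in TzfpGTi/GTi, against 17.7 and 6.95 in WT. In piC_1464 the 3 libraries other than Alkbh1-/- lay within 1.47-fold of each other, so the difference there came with a high value in Alkbh1-/- alone.

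In 2 of the 12 the WT pair differed by more than the mutants did. Cluster piC_86 (chromosome 2, 26758570 to 26778886) had 215 RPM in Alkbh1-/- and 29.2 in TzfpGTi/GTi, against 162 and 15.5 in WT. Its log2 fold was 2.88 between the mutants and 3.39 between WT replicates 1 and 2. Cluster piC_330 (chromosome 4, 149409062 to 149458241) had 116 in Alkbh1-/- and 18.4 in TzfpGTi/GTi, against 68.0 and 7.23 in WT, with log2 folds of 2.66 and 3.23. In both, Alkbh1-/- resembled WT replicate 1 and TzfpGTi/GTi resembled WT replicate 2.

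Clusters lower in Alkbh1-/- than in TzfpGTi/GTi were likewise chosen for their values in the mutants. The 12 lowest with 200 or more reads formed 11 loci. Apart from 1082B their log2 folds ran from -1.20 to -1.83. In 11 of the 12 Alkbh1-/- was below both WT libraries, and TzfpGTi/GTi was above both in 4, between them in 2 and below both in 6. Over the 1642 clusters Alkbh1-/- was below both in 504. Cluster piC_1164 (chromosome 13, 113523137 to 113528798) had 4.65 RPM in Alkbh1-/- and 16.8 in TzfpGTi/GTi, against 22.1 and 17.9 in WT. TzfpGTi/GTi was 3.61-fold above Alkbh1-/- (2.52 to 5.33), and the edgeR log2 difference was -1.85 ± 0.34 with an adjusted p of 0.427.

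The overlapping clusters piC_1110 and piC_2578 (chromosome 13, 23591351 to 23654400 in all) had similar profiles. In RPM piC_1110 had 15.8 in Alkbh1-/- and 47.1 in TzfpGTi/GTi, against 54.0 and 54.8 in WT, with an edgeR log2 difference of -1.57 ± 0.25 and an adjusted p of 0.426. Cluster piC_1583 (chromosome 1, 158257034 to 158285343) had 23.8 in Alkbh1-/- and 69.4 in TzfpGTi/GTi, against 83.2 and 116 in WT. Cluster 468 (chromosome 4, 46509501 to 46548500) had 11.5 in Alkbh1-/- and 30.2 in TzfpGTi/GTi, against 30.6 and 46.4 in WT. In these loci TzfpGTi/GTi lay nearer to WT than Alkbh1-/- did.

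In piC_939, piC_474 and piC_481 the mutants lay on opposite sides of both WT libraries, and TzfpGTi/GTi was the higher of them. Cluster piC_939 (chromosome 11, 5589495 to 5621861) had 14.3 RPM in Alkbh1-/- and 38.8 in TzfpGTi/GTi, against 32.1 and 29.6 in WT. Cluster piC_474 (chromosome 6, 38559449 to 38578187) had 6.84 in Alkbh1-/- and 17.1 in TzfpGTi/GTi, against 11.1 and 11.8 in WT. Cluster piC_481, further along the same chromosome (54650385 to 54653734), had 6.30 in Alkbh1-/- and 15.5 in TzfpGTi/GTi, against 11.4 and 12.01 in WT.

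The remaining lowest clusters were piC_4, piC_47 and piC_1336. In piC_4 (chromosome 1, 34488229 to 34512165) Alkbh1-/- had 12.3 RPM and TzfpGTi/GTi 41.7, against 15.6 and 49.4 in WT. Its log2 fold was -1.75 between the mutants and -1.66 between the WT libraries, so here too each mutant resembled the WT library of its own naming scheme. Cluster piC_47 had 4.83 in Alkbh1-/- and 12.3 in TzfpGTi/GTi, against 9.65 and 13.8 in WT. Cluster piC_1336 had 5.20 in Alkbh1-/- and 12.1 in TzfpGTi/GTi, against 12.7 and 12.1 in WT.

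**Figure D4:**
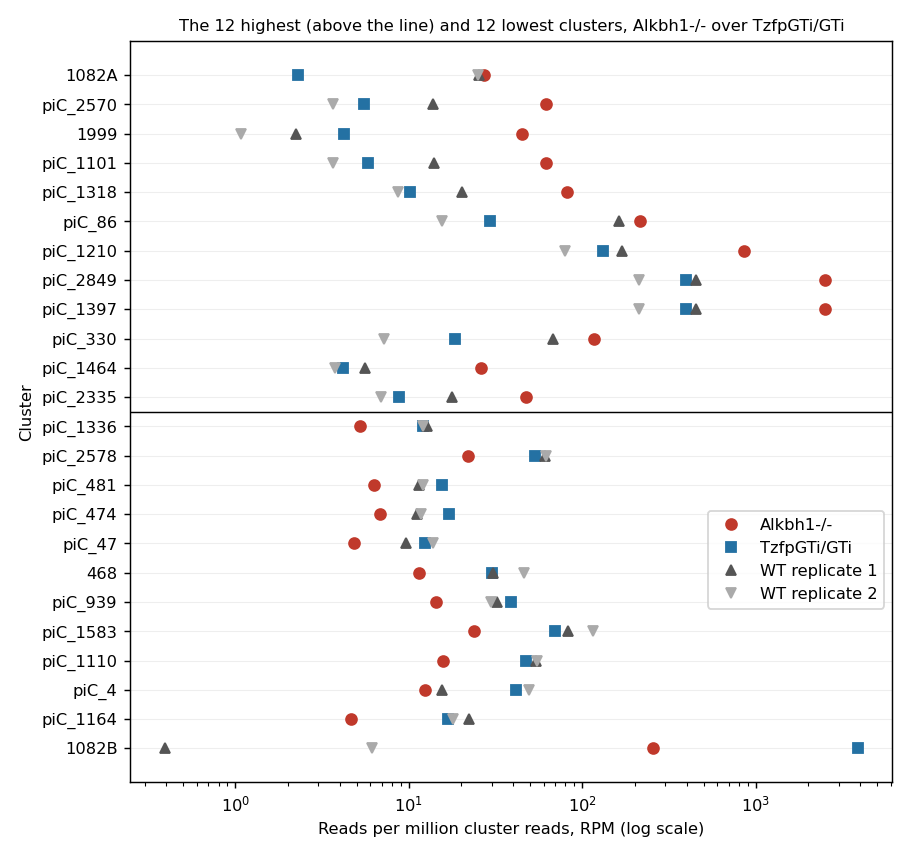
Level in RPM (log axis) of the 12 clusters with the highest and the 12 with the lowest log2 fold of Alkbh1-/- over TzfpGTi/GTi among those with 200 or more reads, 1 symbol per library. Alkbh1-/- is above both WT libraries in all 12 upper clusters and below both in 11 of the 12 lower ones, 1082B being the exception.

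Of the 29 clusters 4-fold higher in Alkbh1-/-, 20 had 200 or more reads in the mutants and 9 had fewer. The 8 of these 20 not yet described had log2 folds of 2.01 to 2.39. Among them cluster 70 (chromosome 1, 56823401 to 56843600), named after its values were seen, had 240 RPM in Alkbh1-/- and 52.0 in TzfpGTi/GTi, against 32.0 and 14.2 in WT, so both mutants lay above both WT libraries. The clusters 4-fold higher in TzfpGTi/GTi were, apart from 1082B, faint. Of the 9 clusters at least 4-fold higher in TzfpGTi/GTi, 8 had fewer than 100 reads in the mutants, and they are named here after their values were seen. Cluster 2597 on chromosome X (100226601 to 100247400) had 0.833 expected reads in Alkbh1-/- and 66 in TzfpGTi/GTi, against 15 and 29.8 in WT. TzfpGTi/GTi was 39.2-fold above Alkbh1-/-, with an interval of 5.66 to 1310. Cluster 1976 (chromosome 14, 71779101 to 71802900) had 0.933 reads in Alkbh1-/- and 55.1 in TzfpGTi/GTi, against 7.80 and 24.9 in WT. In RPM, 2597 had 0.114 in Alkbh1-/- and 4.47 in TzfpGTi/GTi, against 1.47 and 1.94 in WT, and 1976 had 0.128 in Alkbh1-/- and 3.74 in TzfpGTi/GTi, against 0.765 and 1.63 in WT. In 7 of the 9, Alkbh1-/- was below both WT libraries and TzfpGTi/GTi above both, as in 122 of the 1642 clusters, and the 9 were chosen for a low value in the first and a high one in the second.

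The ratio of the mutants followed the ratio of the WT libraries in part. Across the 1642 clusters, the log2 fold of Alkbh1-/- over TzfpGTi/GTi and that of WT replicate 1 over WT replicate 2, which have no library in common, had a Pearson r of 0.327 and a Spearman rho of 0.238. Among the 616 clusters with 200 or more reads r was 0.526. These are descriptions over clusters of the same 4 libraries. Of the 29 clusters 4-fold higher in Alkbh1-/-, 22 were at least 2-fold higher in WT replicate 1 than in replicate 2, as were 10.3% of all clusters compared. Of the 9 clusters 4-fold higher in TzfpGTi/GTi, 3 were at least 2-fold higher in WT replicate 2, as were 1.1% of all. When the log2 fold of the WT pair was subtracted, 9 clusters were 4-fold higher in Alkbh1-/- and 30 lower. Of these, 5 and 6 were also past 4-fold before. The SD over the 1642 clusters was 0.79 after the subtraction, against 0.74 before. This alternative was chosen after the values were seen. The naming scheme, the libraries and the genotypes cannot be told apart in this design, and a fit with a term for the scheme leaves no residual degree of freedom.

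**Figure D5:**
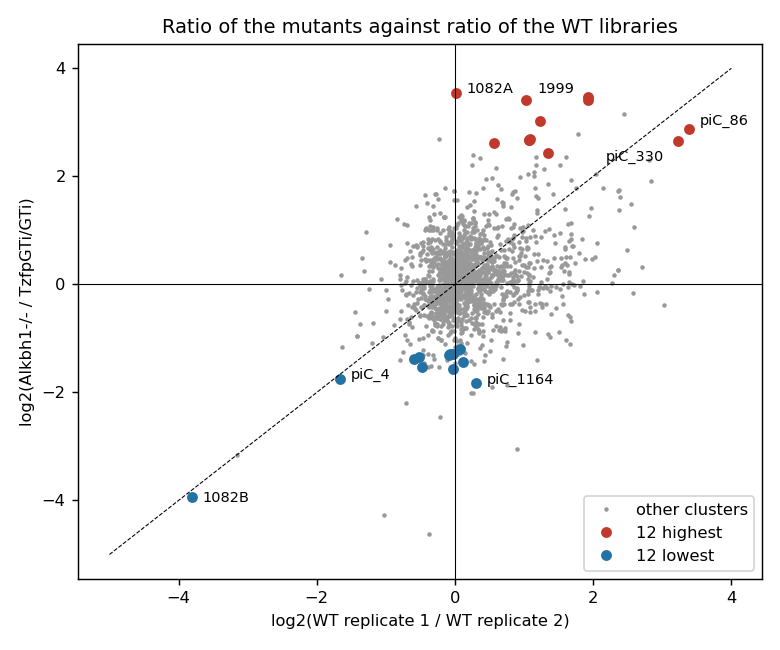
Log2 fold of Alkbh1-/- over TzfpGTi/GTi (vertical) against log2 fold of WT replicate 1 over WT replicate 2 (horizontal), 1 point per cluster, with the 12 highest and 12 lowest clusters in colour and equality dashed. Clusters 1082B, piC_4, piC_86 and piC_330 lie near the dashed line, while 1082A lies at 3.55 between the mutants and 0.02 between the WT libraries.

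Clusters raised in both mutants were sought with a separate WT library for each, so that no control was shared. With Alkbh1-/- over WT replicate 1 and TzfpGTi/GTi over WT replicate 2, 26 of the 1642 clusters were 4-fold higher in Alkbh1-/-. In TzfpGTi/GTi 5 were, and 1082B was in both lists, 1 of 26 and 1 of 5. With the WT libraries exchanged the lists held 62 and 8 clusters, and again only 1082B was in both. Because the study chose 1082B on these samples, its place in both lists is a description and no test. No cluster was 4-fold lower in both under either pairing. At 2-fold, 11 of the 1642 clusters were in both lists under the first pairing (of 155 and 90). Under the second, 13 were (of 310 and 36). Clusters past 2-fold in opposite directions in the mutants numbered 9 under the first pairing and 44 under the second. At 4-fold these numbered 0 and 8. Whether the lists shared more clusters than their sizes alone would give was not tested. In both 2-fold lists under each pairing were 4: 1082B, 1785, piC_1349 and piC_551.

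The other 3 were faint. Cluster piC_1349 (chromosome 17, 13181166 to 13199057) had 31.2 reads in Alkbh1-/- and 59.5 in TzfpGTi/GTi, against 6.17 and 20.5 in WT. That is 4.27 RPM in Alkbh1-/- and 4.03 in TzfpGTi/GTi, against 0.605 and 1.34 in WT. Cluster 1785 (chromosome 13, 43468201 to 43504800) had 2.74 RPM in Alkbh1-/- and 2.58 in TzfpGTi/GTi, against 1.21 and 0.862 in WT. The mutants nearly coincided in both, with log2 folds of 0.09 and 0.10 between them. Cluster piC_551 (chromosome 7, 19881724 to 19895194) had 5.87 in Alkbh1-/- and 1.69 in TzfpGTi/GTi, against 0.687 and 0.522 in WT. These 3 were picked for their values, so no test is given.

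By kind of cluster, those with a number for a name were more dispersed at low levels. Of the 225 numbered clusters, 26 were 2-fold higher in Alkbh1-/- and 18 lower, and of the 1417 piC clusters 132 were higher and 53 lower, to be read beside 9.62% and 4.32% of all. Among clusters of 40 to 100 reads, 31.3% of 67 numbered and 14.4% of 609 piC clusters were past 2-fold. Among those with 10000 reads or more, 2.56% of 78 numbered clusters were past 2-fold, and these clusters held 92.4% of reads in Alkbh1-/- and 92.8% in TzfpGTi/GTi. Of the 18 piC clusters at that level, 4 were 2-fold higher in Alkbh1-/- and 0 lower. Among these 4, piC_1397 and piC_2849 are 1 locus counted under both names, and 16.7% of the 18 were past 2-fold in the WT pair.

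By the median over clusters, longer ones stood slightly higher in Alkbh1-/-. The 10 most abundant clusters, all in the longest quartile, had a median log2 fold of -0.11. By length quartile, from shortest to longest, the median log2 fold was -0.01, 0.05, 0.14 and 0.22, and in the WT pair it was 0.11, 0.10, 0.07 and 0.12. Clusters also differed by read placement. Among clusters under 1000 reads in each mutant, the 268 with whole-number values in both (within 0.001), as when no read is shared with another place, had a median of 0.03. The 1192 with divided reads, most of this range, had a median of 0.15. In the WT pair both medians were 0.15. All 22 clusters of the range that were 4-fold higher in Alkbh1-/- had divided reads, 22 of 1192 against 0 of 268, beside 1.77% of all clusters compared. Divided clusters held 1.34% of reads in Alkbh1-/- and whole-number ones 0.166%. Divided clusters were also longer, with a median of 29808.5 bp against 16727.5 bp. Length, number of reads and read placement were not separated. Neighbouring clusters within 10000 bp of each other and without overlap (33 pairs) had a Pearson r of 0.377 between their log2 folds, as a description. The same pairs had an r of 0.161 between their WT log2 folds. None of the pairs had both members past 2-fold, beside 13.9% of all single clusters, so too few pairs were there to read this.

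By chromosome, median log2 folds of the autosomes ran from -0.22 on chromosome 3 to 0.34 on chromosome 17. Chromosome 17 held 15.96% of reads in Alkbh1-/- and 11.7% in TzfpGTi/GTi, against 11.2% and 10.8% in WT, and most of this difference was that of cluster 2249. The 12 clusters on chromosome X held 0.0668% in Alkbh1-/- and 0.0274% in TzfpGTi/GTi, against 0.0430% and 0.0186% in WT. The largest of them was cluster 2548 (64033501 to 64052500), with 563 RPM in Alkbh1-/- and 163 in TzfpGTi/GTi, against 339 and 101 in WT. Its log2 fold was 1.79 between the mutants and 1.75 between the WT libraries, while the median over the 12 clusters was -0.08. The 29 clusters 4-fold higher in Alkbh1-/- formed 27 separate loci, and the 9 lower ones formed 9.

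The floor of 40 summed reads set which clusters were compared. Just inside it lay piC_1340, with 13 reads in Alkbh1-/- and 27 in TzfpGTi/GTi, and piC_1855, with 10 and 30. Just outside it lay piC_2279, with 23.6 reads in Alkbh1-/- and 16.3 in TzfpGTi/GTi, and piC_934, with 25.7 and 14. The members nearest the floor had log2 folds from -2.01 to -0.01 and those just under it from -0.24 to 1.87.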

How the data were processed

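Small RNA under 200 nt (50 ng, 15 PCR cycles) was read as 36 bp single ends, per the labels' protocols. The deposited tables give each cluster's mm9 position, name and expected count, which need not be whole. The submitters' processing notes list Novoalign, TopHat, bedtools and CASAVA 1.3 but no role for any, and no source used here says how clusters were defined. The mRNA table, deposited as raw counts by gene, served only for the marker check, with symbols matched through a gene name table.

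Each library was scaled to its own total, and log2 folds were taken after adding 0.5 to the expected reads. Totals of 7306115 to 15319520 set the precision: 3 reads correspond to 0.411 RPM in Alkbh1-/- and 0.203 in TzfpGTi/GTi. Ratio intervals are exact (Clopper-Pearson, 95%) and cover counting error only. Expected counts were rounded for edgeR 4.0.16 (R 4.3.3), which fitted 1 coefficient per genotype over 4 libraries without further scaling (biological coefficient of variation 0.263), tested by quasi-likelihood and adjusted by Benjamini-Hochberg over 1642 clusters. The SE after ± is the absolute edgeR log2 difference divided by the square root of the test's F statistic. DESeq2 1.42.0, Python 3.11.15, numpy 2.4.6, pandas 2.3.3 and scipy 1.17.1 were also used. Named were the 12 highest and 12 lowest clusters with 200 or more reads, the 10 most abundant, and 1082B with its neighbours. Members and rules were chosen with earlier results of these data known. Reads in overlapping clusters enter totals more than once, and p-values measure only the spread between the WT libraries, which may be technical.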

Additional observations from a re-analysis of the deposited data

Results flagged for a closer look

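In 5 of the named clusters the mutants lay on opposite sides of both WT libraries, which is why they are listed here. Of the 1642 clusters compared, Alkbh1-/- lay above and TzfpGTi/GTi below both WT libraries in 137. The reverse held in 122, so this placing was not particular to the 5 listed. The log2 fold of Alkbh1-/- over TzfpGTi/GTi was 3.55 for 1082A, with Alkbh1-/- only just above WT, and -1.44 for piC_939, -1.31 for piC_474, -1.29 for piC_481 and -0.9997 for 1082C. The edgeR test of the difference itself gave adjusted p-values of 0.426 for 1082A and 0.427 for each of the other 4, so none passed that test. DESeq2's Wald test did call 1082A, as given above, and none of the other 4.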

How the results depend on the processing

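No paired analysis was possible because the labels give the mutant libraries no replicate number and each mutant has 1 library; the subtraction of the WT pair below follows the naming scheme and is no test. Leaving out either WT library leaves no residual degree of freedom, so that no test remains. Without WT replicate 2, TzfpGTi/GTi lay below WT in 25 of the 29 clusters 4-fold higher in Alkbh1-/-, against 4 with both WT libraries and 5 without WT replicate 1. With no floor, 1196 clusters were 2-fold higher in Alkbh1-/- and 401 lower, 461 were 4-fold higher and 104 lower, and the SD of the log2 fold was 1.18 between the mutants and 1.04 in the WT pair, since clusters with few reads enter. With a floor of 200, 616 clusters remained. Of these, 61 were 2-fold higher and 20 lower, and 20 were 4-fold higher and 1 lower. The SD there was 0.77 between the mutants and 0.57 in the WT pair. With 5 reads added, 38 were 2-fold lower and 5 were 4-fold lower, and the SDs were 0.66 and 0.56. With the WT pair's fold subtracted, chosen after the data were seen, 182 were 2-fold lower, 9 were 4-fold higher and 30 lower; piC_86 (-0.51), piC_330 (-0.57), 1301 (-0.15) and 1031 (0.0454) changed sign. Cluster 1301 also changed sign with TMM (-0.0604) and DESeq2 size factors (-0.0810), and 1031 with totals that leave out the 10 most abundant clusters (0.0027). DESeq2's Wald test called 19 clusters higher, whereas edgeR called 0 in the other 6 settings run. With overlaps counted once, the 10 most abundant clusters held 52.1% (Alkbh1-/-), 51.3% (TzfpGTi/GTi), 52.1% and 51.0% (WT), and numbered clusters 94.2%, 94.4%, 94.4% and 94.4%. The adjusted p of 1082A ran from 0.0696 to 0.9496 over the edgeR settings, and that of 1082B from 0.235 to 0.9496. Depth limits the comparison of clusters with few reads in Alkbh1-/-, the library with the lowest total. The cause of the remaining changes was not tested.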
